A study of Chlamydomonas reinhardtii with 28 samples.

Results

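H3K4me3 peaks that separated an mt+ strain from an mt- strain of the green alga Chlamydomonas reinhardtii were selected from 4 peak lists. A peak of the wild-type (WT) mt+ list was called a consistent mt+ peak when it overlapped a peak of the dnmt1 mt+ list by at least 1 bp and overlapped no peak of either mt- list. Consistent mt- peaks were chosen by the reverse rule. The rule found 112 peaks among the 61903 H3K4me3 peaks of the 4 lists, 45 of them mt+ and 67 of them mt-. The series as a whole holds 152930 peaks in 18 lists.

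Histone marks were mapped by chromatin immunoprecipitation and sequencing (ChIP-seq) in vegetative cells from TAP medium, after formaldehyde fixation and sonication. The mt+ libraries came from strain CC-5155 and the mt- libraries from strain CC-5325. For H3K4me3 each strain was profiled as WT and as a dnmt1 knockout, in which the DNA methyltransferase gene DNMT1 is disrupted, with an Abcam antibody. H3K4me1 and H3K9me3 were profiled in the same 4 combinations and shared 1 input library per combination with H3K4me3, and H3K9me1 was also profiled in set3 mutants. There was 1 library per combination, so no replicate error exists and no test between the mating types was made. The labels do not say whether a mutant line is 1 clone, and mating type and strain background cannot be told apart, because each mating type is represented by 1 strain name.

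Trimethylation of lysine 4 of histone H3 is deposited around the start of actively transcribed genes in most eukaryotes, including this alga. Mating type in Chlamydomonas is set by a region of chromosome 6 that exists in a plus and a minus form. The forms differ by rearrangements and by genes found in one of them, such as MID, the minus dominance gene, and FUS1, a plus gene for gamete fusion, and crossing over between them is suppressed. The deposited files name a separate sequence, mating_type_plus, besides the numbered chromosomes. They do not say which form of the region chromosome 6 carries, they name no genes, and no annotation of their genome build was used, so positions below are given without genes.

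The peak lists were of similar length. The WT mt+ list held 15256 peaks with a median width of 788 bp, the dnmt1 mt+ list 15674 peaks of 818 bp, the WT mt- list 15433 peaks of 822 bp and the dnmt1 mt- list 15540 peaks of 788 bp. The authors' fold at the summit, a linear ratio of pileup to local background, had medians of 5.26 and 5.32 in the WT and dnmt1 mt+ lists and of 3.95 and 4.21 in the mt- lists. Folds and q-values below come from the authors' peak caller and serve only to describe and rank peaks within their own list. No read counts were given. The local background recovered from the deposited fold and p-values was 15.7 to 16.9 pileup units at the 1st percentile of the 4 lists, and the median summit pileup was 111 and 118 in mt+ and 84.7 and 94.4 in mt-. These are over the summits that could be solved. The unsolved ones, 933 and 982 in mt+ and 0 and 76 in mt-, had higher folds than the median of their lists. With all of them counted as the highest, the medians were 112 and 119 in mt+ and 84.7 and 94.4 in mt-. The mt- lists thus had lower summit pileups over a like background, and the part of this in the differences was not tested. The mating_type_plus sequence carried 27 and 31 H3K4me3 peaks in the WT and dnmt1 mt+ lists and 9 and 10 in the mt- lists. The rule used these same 4 lists, so these counts are no separate check of the strain labels. The other marks, which the rule did not use, followed the same order, with 9 to 22 peaks in each mt+ list and at most 7 in each mt- list.

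Almost all H3K4me3 peaks were shared by the strains and genotypes. Of the WT mt+ peaks, 99.8% overlapped a dnmt1 mt+ peak, and of the WT mt- peaks, 98.2% overlapped a dnmt1 mt- peak. The 45 consistent mt+ peaks were 0.295% of the 15256 WT mt+ peaks, with a Wilson 95% interval of 0.221% to 0.394%. The 67 consistent mt- peaks were 0.434% of the 15433 WT mt- peaks, with an interval of 0.342% to 0.551%. These intervals, and those below, cover counting error only. When overlapping peaks of the 4 lists were joined into 15751 loci, 14855 loci were present in all 4 lists. At the joined loci, 44 were held by both mt+ lists alone and 67 by both mt- lists alone.

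The consistent peaks were unevenly placed in the genome. Of the 45 mt+ peaks, 18 lay on mating_type_plus, 6 on chromosome 6 and 21 elsewhere in the genome. Of the 67 mt- peaks, 56 lay on chromosome 6, none on mating_type_plus and 11 elsewhere. Against the number of WT peaks on each, the 18 peaks made up 66.7% of the 27 WT mt+ peaks of mating_type_plus (interval 47.8% to 81.4%), against 0.476% of 1260 on chromosome 6 (0.218% to 1.04%) and 0.150% of 13969 elsewhere (0.0984% to 0.230%). The 56 mt- peaks were 4.23% of the 1324 WT mt- peaks of chromosome 6 (3.27% to 5.45%), against 0.0780% of 14100 elsewhere (0.0436% to 0.140%). Many of these peaks were neighbours, as described below, so the intervals treat as separate what may not be.

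**Figure D1:**
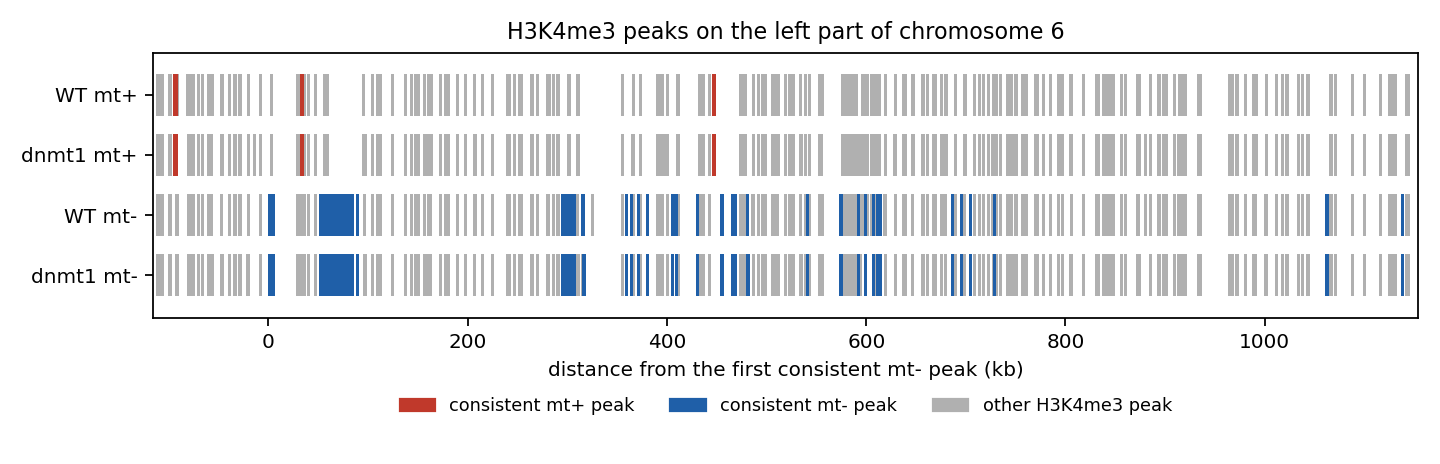
H3K4me3 peaks of the 4 lists along the first part of chromosome 6, plotted as distance in kb from the first consistent mt- peak, with one row per library and narrow peaks drawn at a minimum width. Consistent mt- peaks sit in the mt- rows, 25 of them in the cluster at the left, and 4 consistent mt+ peaks sit in the mt+ rows within the first 1 Mb.

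On chromosome 6 the mt- peaks were confined to the first part of the chromosome. They ran from 175769 to 1313355, and 54 of the 56 lay below 1 Mb. Between the first and the last, the WT mt- list held 231 peaks, of which the 56 were 24.2% (interval 19.2% to 30.2%), while the WT mt+ list held 169 peaks. The 2 peaks beyond 1 Mb included the last, at 1312584 to 1313355, with authors' folds of 4.49 in WT mt- and 4.28 in dnmt1 mt-. The median distance from a member to the closest mt+ peak was 3218 bp, and 35 of the 56 had one within 5 kb. The longest such distance was 17458 bp, in the cluster of 25 described below.

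The mt- peaks of chromosome 6 with the highest folds in both of their libraries were above the median of both of their own lists. The peak at 629193 to 630404 had folds of 4.99 in WT and 4.45 in dnmt1, and ranked at the 97.8th percentile of the WT list and the 61.7th of the dnmt1 list. The peak at 640097 to 641095 had folds of 4.81 and 4.26 and ranked at the 93.9th and 52.3rd percentiles. The peak at 579768 to 581108 had folds of 4.34 and 4.70. Across all 56, WT folds ran from 1.84 to 4.99 with a median of 3.17, below the list's own median of 3.95. Of the 56, 10 were at or above the median of their WT list and 20 were below its 10th percentile.

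Further members of the first 1 Mb had the following values, WT before dnmt1. The peak at 902832 to 903370 had folds of 4.24 and 5.05, and that at 469820 to 470758 had folds of 4.06 and 4.80. The peak at 480749 to 481192 had folds of 4.17 and 4.06, and that at 604519 to 605706 had folds of 3.99 and 4.53. The widest member, at 489899 to 491591, spanned 1693 bp and had folds of 3.73 and 4.06. The peak at 254268 to 254778 had folds of 3.61 and 3.60, that at 253095 to 253570 had 3.51 and 3.8, and that at 545421 to 546593 had 3.48 and 3.87. The first member by position, at 175769 to 176312, had folds of 3.69 and 2.86. By the rule, neither mt+ list had a peak overlapping these WT peaks.

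**Figure D2:**
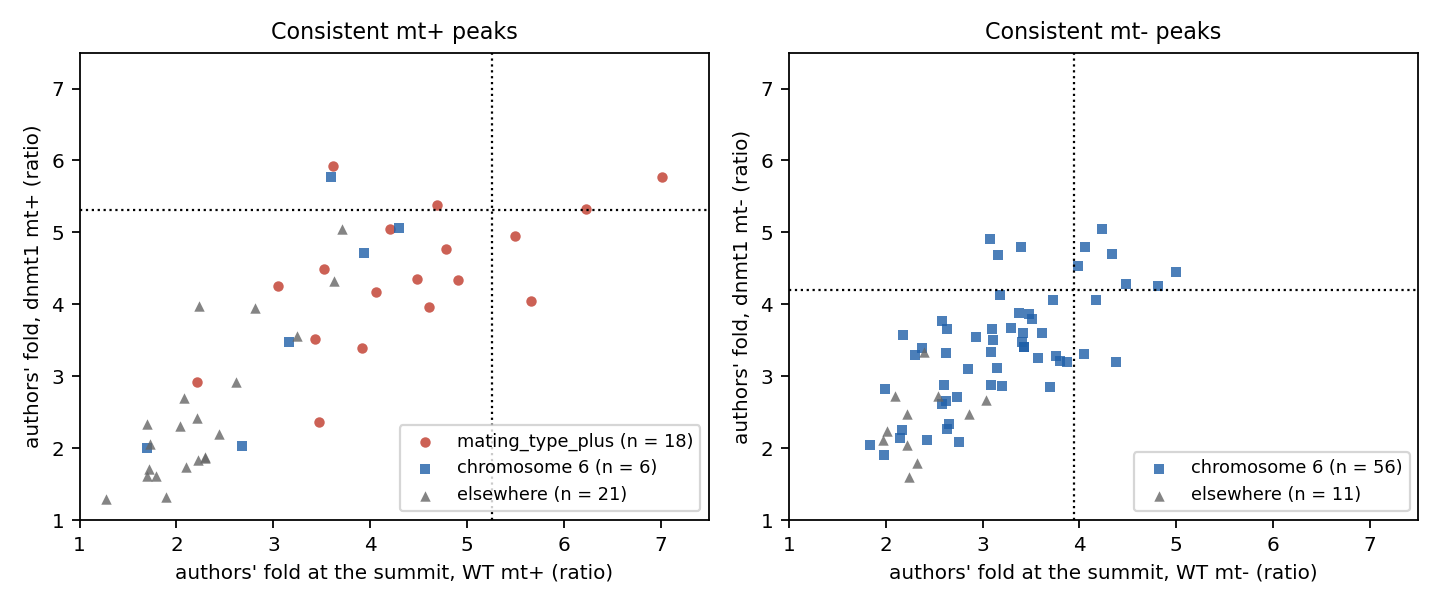
Authors' fold at the summit (linear ratio) of each consistent peak in its WT list on the horizontal axis and in its dnmt1 list on the vertical axis, in one panel per mating type, with symbols for the place of the peak and dotted lines at the median fold of each list. Members on mating_type_plus and chromosome 6 reach 7.01 and 4.99, while members elsewhere stay at or below 3.71 in WT.

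Consistent mt- peaks occurred in groups. With members no more than 20 kb apart joined and at least 3 members asked for, 47 of the 67 fell in 6 clusters, all on chromosome 6. The largest, at 226909 to 263578, held 25 members over 36.7 kb. In that span the WT and dnmt1 mt- lists had 27 peaks each, and the mt+ lists had 2 peaks each. Its members had a median WT fold of 3.09 and a median width of 492 bp.

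The WT mt- peaks of this cluster, 2 of them not members, were for the most part evenly spaced. Of the 26 distances between neighbouring summits of the WT mt- list in this cluster, 24 were between 1000 and 1400 bp, with a mean of 1190 bp ± 29.8 (SD over the 24 distances) and a range of 1128 to 1264 bp. The other distances were 2370 and 5476 bp. The dnmt1 mt- list gave 24 of 26 distances in that range with a mean of 1191 bp ± 51.6, and the others were 2400 and 5394 bp. The SDs describe the spread along the chromosome and not between replicates. In the mt+ lists the 2 peaks were 2387 bp apart in WT and 2399 bp apart in dnmt1, with folds of 1.79 and 1.95 in WT, and they overlapped the mt- peaks at 230426 and 232799, which were for that reason not members.

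**Figure D3:**
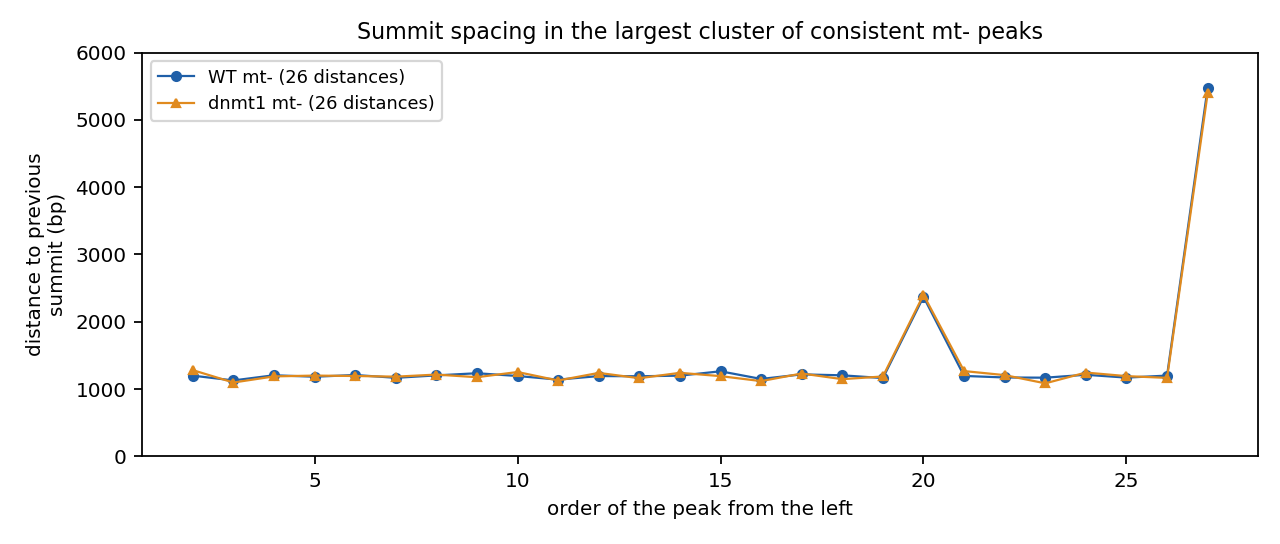
Distance in bp from each H3K4me3 summit to the one before it in the largest cluster of consistent mt- peaks, in order from the left, for the WT and dnmt1 mt- lists. Both lines run near 1190 bp for 24 of 26 distances, with a step to 2370 or 2400 bp and another to 5476 or 5394 bp.

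Runs of peaks with a similar spacing were found elsewhere in the genome. The WT mt- list had 46 runs of at least 5 peaks whose neighbouring summits were 1000 to 1400 bp apart, on 15 chromosomes or contigs, and the mean spacing of a run was 1122 to 1205.6 bp with a median of 1180 bp. Run means had to fall in this window, which holds the spacing of the cluster. Of all neighbouring summit distances of the WT mt- list, 7.14% were in the window. Of the 46 runs, 5 lay in the first 1 Mb of chromosome 6. Of their 54 peaks, 20 also had a peak in the WT mt+ list, 21 in the dnmt1 mt+ list and 42 in the dnmt1 mt- list. The other 41 runs had 418 of their 422 peaks in the WT mt+ list, 422 in the dnmt1 mt+ list and 418 in the dnmt1 mt- list. This division by place was made with the positions of the members known, and the 5 runs are the ones that held members, so it is a description only. The longest run in each of the 4 lists was 22 peaks on chromosome 1. Among the 5, the run of 19 peaks starting at summit 227123 had 2 of its peaks in WT mt+, and the run of 7 starting at summit 250937 had none. Both had all of their peaks in dnmt1 mt-.

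The remaining 3 of those runs lay in another cluster of 6 members at 748870 to 788588. There the WT and dnmt1 mt+ lists had 18 and 20 H3K4me3 peaks and the WT and dnmt1 mt- lists 29 and 18, and the median summit distance in WT mt- was 1187 bp. The 6 members were weak, with a median WT fold of 2.30 and a median width of 290 bp. Where the opposite strain has no peak of any mark, absent sequence and an absent mark cannot be told apart in peak lists.

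The other 4 mt- clusters were smaller. The cluster at 469820 to 491591 held 5 members with a median WT fold of 3.73, among 8 WT mt- and 3 WT mt+ peaks. The cluster at 533557 to 555014 held 4 members (median 3.62) among 6 and 2 peaks. The cluster at 629193 to 655847 held 4 members (median 4.10), the highest median of the 6, among 6 and 2 peaks. The cluster at 860378 to 879727 held 3 members (median 2.38) among 5 and 2 peaks. Members thus made up a large part of the peaks of each span, and each span also held peaks found in mt+.

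Consistent mt+ peaks on mating_type_plus spread over 360 kb, from 4953 to 365319. The sequence had 31 joined H3K4me3 loci in all, of which 18 were held by both mt+ lists alone, 9 by all 4 lists, 3 by dnmt1 mt+ alone and 1 by both dnmt1 lists. The loci found in all 4 lists were at 1817, between 144944 and 161861, and between 353038 and 364381. In WT mt- their folds were 3.05 to 4.71, so the mt- libraries did give called peaks on this sequence. No locus was held by an mt- list alone. 

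**Figure D4:**
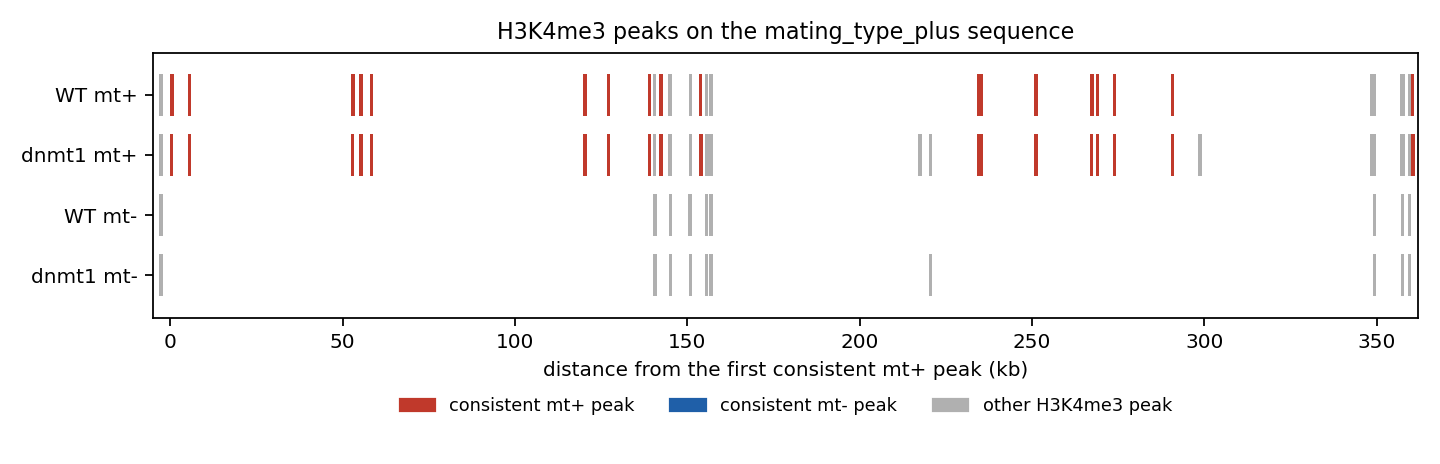
H3K4me3 peaks of the 4 lists along mating_type_plus, as distance in kb from the first consistent mt+ peak, with one row per library and narrow peaks drawn at a minimum width. The 18 consistent mt+ peaks appear in both mt+ rows and in neither mt- row, and the 9 loci in all 4 rows fall at the start, in the middle and at the end.

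The members with the highest folds on mating_type_plus were the following, WT before dnmt1. The peak at 124777 to 125763 had folds of 7.01 and 5.77 and ranked at the 93.9th percentile of the WT list and the 66.9th of the dnmt1 list. The peak at 4953 to 5586, the first member, had folds of 6.23 and 5.33. The peak at 131587 to 132504 had folds of 5.49 and 4.95, and that at 146735 to 147851 had folds of 5.66 and 4.05. Across the 18, WT folds ran from 2.21 to 7.01 with a median of 4.34, and 4 were at or above the WT median of 5.26.

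Further members had these values, WT before dnmt1. The peak at 57510 to 58072 had folds of 4.79 and 4.78, and that at 278298 to 279294 had folds of 4.48 and 4.36. The peak at 143528 to 144295 had folds of 4.69 and 5.39, with an mt- peak 774 bp away. The last member, at 364913 to 365319, had folds of 4.90 and 4.34, with an mt- peak 541 bp away. The peak at 59659 to 60868 had folds of 4.20 and 5.05, that at 238928 to 239636 had 4.06 and 4.18, and that at 273471 to 274061 had 4.60 and 3.96. The one at 10048 to 10492 had folds of 3.61 and 5.92. All 18 had a −log10 q-value of at least 5 in both mt+ lists.

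Of the 45 consistent mt+ peaks, 18 fell in 4 clusters, 3 of them on mating_type_plus. The cluster at 124777 to 158968 held 5 members with a median WT fold of 5.49, among 8 WT mt+ and 3 WT mt- peaks. The cluster at 238928 to 296015 held 7 members (median 3.47), and the mt- lists had no H3K4me3 peak in this span. The cluster at 57510 to 63546 held 3 members (median 4.20), again with no mt- peak. The remaining cluster, on chromosome 17, is described with the other chromosomes below.

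In the 57.1 kb span with 7 members, H3K9me1 peaks numbered 3 in WT mt+, 13 in dnmt1 mt+ and 12 in set3 mt+, against 1, 0 and 0 in the mt- lists. The H3K9me1 lists were of unequal length. They held 3831, 1248 and 2785 peaks in WT, dnmt1 and set3 mt+, and 4113, 2716 and 6160 in mt-. H3K9me1 is a mark of silenced repeats and transgenes in this alga. None of the 18 members on mating_type_plus overlapped an H3K9me1 peak in any of the 6 H3K9me1 lists, although the H3K9me1 peaks of the span lay among them. Over all WT mt+ H3K4me3 peaks the overlap was also low, at 2.67% in WT mt+, 0.00655% in dnmt1 mt+, 0.0524% in set3 mt+, 2.97% in WT mt-, 0.0393% in dnmt1 mt- and 0.21% in set3 mt-.

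The 6 consistent mt+ peaks of chromosome 6 were narrower and less alike. The peaks at 621408 to 621689 (folds 4.30 and 5.06), at 207877 to 208106 (3.94 and 4.72) and at 79984 to 80578 (3.16 and 3.47) lay in the first 1 Mb. The peak at 81945 to 82179 was borderline. Its WT fold was 3.60, its nearest mt- peak was 146 bp away, and its dnmt1 partner was 1289 bp wide with a summit 834 bp off. The remaining peaks were far from the start, at 4814589 (folds 1.69 and 2.01) and 7438776 (2.67 and 2.03). The wide dnmt1 partner itself overlapped an mt- peak, so the joined loci count 5 and not 6 on chromosome 6 for both mt+ lists alone.

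Outside chromosome 6 and mating_type_plus the consistent peaks were few, and most of them were narrow with low folds. The 21 mt+ peaks had a median WT fold of 2.21 and a median width of 209 bp, and 19 of them were below the 10th percentile of folds in the WT mt+ list. The 11 mt- peaks had a median WT fold of 2.24 and a median width of 192 bp, and 10 were below the 10th percentile of the WT mt- list. A low fold was not always a low pileup. The mt+ members on chromosome 11 at 2183108, chromosome 12 at 5130608 and chromosome 15 at 5535400 had WT folds of 2.10, 1.89 and 1.27. They were 737, 951 and 549 bp wide, with recovered WT summit pileups of 173, 173 and 176, above the list median of 111. Their recovered local background was 82.0, 91.1 and 138, against a list median of 19.7. On mating_type_plus the median member ranked at the 23.5th percentile of its WT list, and on chromosome 6 the median mt- member ranked at the 16.7th. A −log10 q-value of at least 5 in both own lists was reached by 12 of the 21 and 4 of the 11, against 53 of the 56 on chromosome 6.

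The highest folds among these were on 4 chromosomes in mt+. The peak on chromosome 10 at 6145345 to 6145930 had folds of 3.71 in WT and 5.05 in dnmt1. A pair on chromosome 11, at 147889 (3.63 and 4.33) and 148351 (2.81 and 3.95), lay 257 bp apart. The peak on chromosome 7 at 1098909 had folds of 3.24 and 3.56, and that on chromosome 15 at 4574595 had 2.61 and 2.92. The next was on chromosome 8 at 2719133 (2.23 and 3.98). Lower folds followed on chromosome 17 at 2962105 (2.21 and 2.42) and at 5246826 (2.08 and 2.70), on chromosome 3 at 2075895 (2.04 and 2.31), on chromosome 12 at 8227218 (2.29 and 1.89) and on chromosome 2 at 1032216 (2.29 and 1.87). The mt+ cluster on chromosome 17, at 960987 to 963594, held 3 members with WT folds of 1.70 to 2.44 over a recovered local background of 46.0 to 70.9 pileup units, above the list median of 19.7. Peaks of the mt- lists lay 227 to 543 bp from these 3 members.

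In mt- the strongest members elsewhere were on chromosome 4 at 262009 (folds 3.03 and 2.67), chromosome 8 at 1471861 (2.54 and 2.73), chromosome 16 at 2654119 (2.86 and 2.48) and chromosome 9 at 4835666 (2.4 and 3.34). The others were on chromosome 7 at 130196 (2.22 and 2.48), chromosome 8 at 1642858 (2.10 and 2.72), chromosome 13 at 1092172 (2.22 and 2.04) and chromosome 10 at 4542241 (2.01 and 2.24). The last 3 were on chromosome 2 at 5907290 (1.97 and 2.12), chromosome 4 at 2158940 (2.32 and 1.80) and contig 56 at 8752 (2.24 and 1.6). No 2 of the 11 lay within 20 kb of each other. The closest mt+ peak was 2408 bp away in the median.

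The number of these peaks can be set beside loci held by other pairs of lists, among which the crossed pairs followed neither mating type nor genotype. Elsewhere in the genome, 21 joined loci were held by both mt+ lists alone and 11 by both mt- lists alone. In the same part of the genome 127 were held by dnmt1 mt+ and WT mt- alone and 6 by WT mt+ and dnmt1 mt- alone, while 160 were held by both dnmt1 lists alone and 8 by both WT lists alone. On chromosome 6 both mt- lists alone held the most of these pairs, with 56 loci, against 5 for both mt+ lists, 10 and 1 for the crossed pairs in the same order, 9 for both dnmt1 lists and 0 for both WT lists. On mating_type_plus the crossed pairs held none and both mt+ lists held 18.

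A comparison of the WT libraries alone gave many more differences, and most of them were not repeated in dnmt1. WT mt+ had 93 peaks without a WT mt- peak, 0.61% of its list, and WT mt- had 403 without a WT mt+ peak, 2.61% of its list. All 18 such mt+ peaks on mating_type_plus were consistent, as were 6 of 12 on chromosome 6 and 21 of 63 elsewhere. Among the mt- differences, 56 of 84 on chromosome 6 were consistent and 11 of 319 elsewhere. Of those 319, 131 had a peak in dnmt1 mt+ but not in dnmt1 mt-, and 122 had one in both dnmt1 lists. The dnmt1 libraries alone differed by 381 mt+ peaks, 2.43% of the dnmt1 mt+ list, and by 121 mt- peaks, 0.779% of the dnmt1 mt- list. The excess of differences thus lay with WT mt- in one genotype and with dnmt1 mt+ in the other.

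H3K9me3 was profiled in separate libraries of the same strains and genotypes, with an antibody labelled CST and not Abcam. Its peaks overlapped most H3K4me3 peaks genome-wide. Among all WT mt+ H3K4me3 peaks, 77% overlapped a peak of the WT mt+ H3K9me3 list, 76.9% one of dnmt1 mt+, 79.6% one of WT mt- and 77.9% one of dnmt1 mt-. Among all WT mt- H3K4me3 peaks the shares were 75.5%, 75.6%, 78.3% and 76.6% in the same order.

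At the members on mating_type_plus and the mt- members on chromosome 6, H3K9me3 peaks were called only in the strain that had the H3K4me3 peak. At the rest of the members they were absent, or were mostly at the same 3 sites in both strains. On mating_type_plus 10 of the 18 members overlapped an H3K9me3 peak in WT mt+ (55.6%, interval 33.7% to 75.4%) and 8 in dnmt1 mt+ (44.4%, 24.6% to 66.3%), and 0 of 18 did in either mt- list, for which the upper bound was 17.6%. Of the 56 mt- members on chromosome 6, 14 had an H3K9me3 peak in WT mt- (25%, 15.5% to 37.7%) and 11 in dnmt1 mt- (19.6%, 11.3% to 31.8%), and 0 of 56 did in either mt+ list, with an upper bound of 6.42%. Those shares in the own strain were below the genome-wide shares. On chromosome 6 the members were not alike. Of the 25 members of the evenly spaced cluster, 1 overlapped H3K9me3 in WT mt- and 0 in dnmt1 mt-. The 6 members of the cluster at 748870 had none in either. In the clusters at 469820, 533557, 629193 and 860378, 3 of 5, 1 of 4, 2 of 4 and 0 of 3 did in WT mt-. Over all 27 WT mt+ H3K4me3 peaks of mating_type_plus, which include the 18, the shares were 66.7% in WT and 55.6% in dnmt1 mt+. These were nearer to those of the members. In each mt- list the share over the 27 was 14.8%, below the upper bound of 17.6% for the 18 members. Over all 1324 WT mt- H3K4me3 peaks of chromosome 6 the shares were 76.2% in WT and 75.1% in dnmt1 mt-. In WT and dnmt1 mt+ they were 73.1% and 72.9%. Of the 21 mt+ members elsewhere, 3 and 5 overlapped H3K9me3 in WT and dnmt1 mt+, and 3 and 4 did in WT and dnmt1 mt-. The same 3 members did in all 4 lists, the ones on chromosomes 11, 12 and 15 described above with a high local background. Each of the other overlaps was in a single list. Of the 6 mt+ members on chromosome 6 and the 11 mt- members elsewhere, none overlapped H3K9me3 in any of the 4 lists, so nothing there could be divided.

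**Figure D5:**
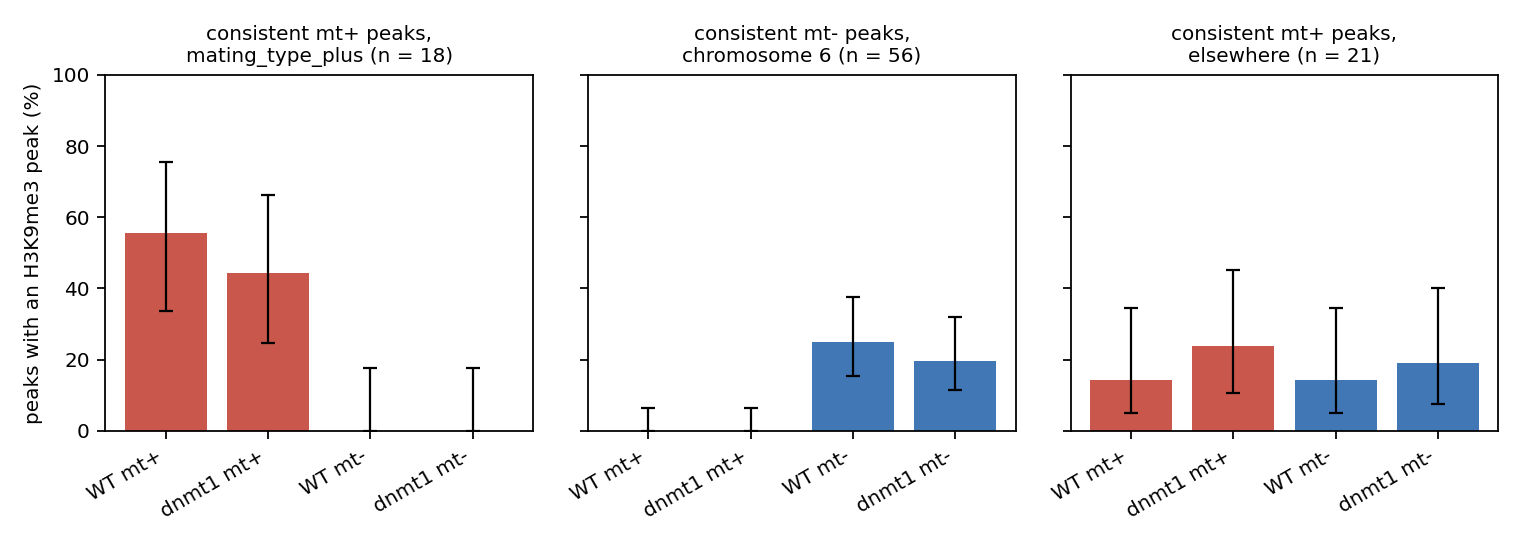
Percentage of consistent H3K4me3 peaks that overlapped an H3K9me3 peak in each of the 4 H3K9me3 lists, one panel per group of members, with Wilson 95% intervals as error bars. Bars stand at 55.6% and 44.4% for mating_type_plus members in mt+ and at 25% and 19.6% for chromosome 6 members in mt-, the lists of the opposite mating type are at 0 there, and mt+ members elsewhere in the genome have 3 to 5 of 21 in each list.

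Members with H3K9me3 in both own lists had higher median folds and widths than the rest. On mating_type_plus the 8 members with an H3K9me3 peak in both mt+ lists and in no mt- list had a median WT H3K4me3 fold of 5.14 and a median width of 953 bp, against 3.54 and 641 bp for the other 10, of which 2 had H3K9me3 in 1 of the mt+ lists. On chromosome 6 the 10 mt- members of that kind had a median fold of 4.02 and a median width of 943 bp, against 2.93 and 494 bp for the other 46, of which 5 had H3K9me3 in 1 of the mt- lists. These 46 included all 25 members of the evenly spaced cluster, with medians of 3.09 and 492 bp. They also included the 6 at 748870, with medians of 2.30 and 290 bp. A wider peak can overlap another list more easily, and the part of this was not tested. WT folds of the 8 ran from 4.06 at 238928 to 7.01 at 124777, and those of the 10 ran from 3.07 at 715056 to 4.99 at 629193.

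The evenly spaced cluster had few H3K9me3 peaks. In its span of 36.7 kb, 1 H3K9me3 peak was called in WT mt- and none in the other 3 H3K9me3 lists. H3K9me1 peaks numbered 12 in WT mt-, 4 in dnmt1 mt- and 11 in set3 mt-, and 1, 2 and 1 in the mt+ lists of the same genotypes. In WT mt- 3 of the 12 overlapped an H3K4me3 peak, and the median distance from an H3K9me1 summit to the closest H3K4me3 summit was 480 bp, with a range of 305 to 738 bp. With H3K4me3 summits about 1190 bp apart, all 12 H3K9me1 summits were thus at least 305 bp from one. In set3 mt- 6 of the 11 overlapped an H3K4me3 peak of WT mt-, with a median distance of 366 bp and a range of 326 to 755 bp. In dnmt1 mt- 1 of the 4 did, with a median of 320 bp and a range of 252 to 536 bp.

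In the weaker cluster at 748870, H3K9me1 peaks numbered 32 in WT mt-, 2 in dnmt1 mt- and 28 in set3 mt-, against 0, 1 and 3 in mt+. These lists differed in length, as given above. Over all 56 mt- members of chromosome 6, 8 overlapped an H3K9me1 peak in WT mt-, 1 in dnmt1 mt- and 7 in set3 mt-, and none in the mt+ lists. The shares over all WT mt- H3K4me3 peaks were 3.42% in WT mt-, 0.0454% in dnmt1 mt- and 0.298% in set3 mt-, and 3.08%, 0% and 0.0713% in the mt+ lists of the same genotypes. With at least 50% of the H3K4me3 peak covered, the counts in the mt- lists were 1, 0 and 0, so most of the overlaps covered a smaller part of the peak. H3K4me1 overlapped 1 of the 56 in dnmt1 mt+, a list of 12718 peaks, and 0 in WT mt+, WT mt- and dnmt1 mt-. Over all 1324 WT mt- H3K4me3 peaks of chromosome 6, the H3K4me1 share in dnmt1 mt+ was 0.378%.

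The rule was applied to the other marks for comparison. For H3K9me3 it found 73 mt+ peaks, 0.607% of the WT mt+ list, of which 11 were on mating_type_plus and 5 on chromosome 6, and 185 mt- peaks, 1.49% of the WT mt- list, of which 29 were on chromosome 6. For H3K9me1 it found 22 mt+ peaks (0.574%), 1 of them on mating_type_plus, and 21 mt- peaks (0.511%), 6 of them on chromosome 6. For H3K4me1 it found 715 mt+ peaks (34.6%) and 66 mt- peaks (1.28%), from lists of very unequal length, 2067 and 12718 peaks in mt+ and 5151 and 1104 in mt-. No mark gave a consistent mt- peak on mating_type_plus, but the mt- lists held few peaks there that could have been one. In WT and dnmt1 mt- they held 9 and 10 for H3K4me3, 4 and 4 for H3K9me3, 7 and 1 for H3K9me1 and 1 and 0 for H3K4me1. For H3K4me1 the rule thus could not have found one. Among the 4 marks, H3K4me3 had the largest part of its mt- peaks on chromosome 6, 56 of 67.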

How the data were processed

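The authors called narrow peaks on each library alone and deposited, per peak, an integer display score, a fold enrichment over local background as a linear ratio, a −log10 p-value, a −log10 q-value and a summit. The submitters' processing notes name MACS2 2.2.7.1, with Trim Galore 0.6.7, deepTools 3.5.1, Picard and also Bowtie2 2.4.2, but no settings. No build of the genome was given in these sources. No H3K4me3 peak had a deposited −log10 q-value under 2. The 10 input libraries were not analysed here.

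Positions were counted from 1. Overlap meant at least 1 bp. Clusters joined consistent peaks of a direction at most 20 kb apart and needed at least 3. Depth is not given, so the local background and pileup at each summit were solved from the deposited fold and p-value under a Poisson model, which succeeded for 93.7% to 100% of summits per H3K4me3 list. Medians of pileup and background are over the solved summits. The scripts were tested on simulated data. Analysis used Python 3.11.15, NumPy 2.4.6, SciPy 1.17.1, pandas 2.3.3 and matplotlib 3.10.9.

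Shares carry Wilson 95% intervals. With 1 library per combination no p-value was computed, and an exact permutation test of 2 against 2 libraries could not have reached 0.05. Regions were named by rule: per direction up to 12 peaks with the highest lower fold of their WT and dnmt1 libraries on each of chromosome 6, mating_type_plus and the rest of the genome, the first and last by position on chromosome 6 and mating_type_plus, and every cluster. The member at 715056 on chromosome 6 was named as an end of a range. The mt+ members on chromosomes 11, 12 and 15 at 2183108, 5130608 and 5535400 were named for their high local background. The members and lists were chosen with earlier results of these data known. Alternatives changed the overlap, the distance to the opposite list, the q-value threshold, the libraries used and the cluster distance.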

Additional observations from a re-analysis of the deposited data

How the results depend on the processing

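With the WT libraries only, the rule gave 93 mt+ and 403 mt- peaks, and with the dnmt1 libraries only 381 and 121. Under the other alternatives the count was 35 to 63 for mt+ and 57 to 72 for mt-, against 45 and 67. One of these, asking that the dnmt1 partner also overlap no opposite peak, was chosen after seeing the data and gave 44 and 67. Peaks elsewhere in the genome were 12 mt+ and 4 mt- when a −log10 q-value of at least 5 was asked of the lists that hold the peak, against 21 and 11. Asked of all 4 lists, it gave 32 mt+ and 7 mt- elsewhere and 13 mt+ on chromosome 6, against 6. With consistent peaks at most 10 kb apart, 9 mt+ peaks were in clusters instead of 18, and 45 mt- peaks instead of 47. The cause of these changes was not tested, beyond that fewer libraries or a higher threshold enter by construction. No paired analysis was possible because no result comes from a test. The counts within the WT pair and within the dnmt1 pair are those given first. A missing peak can be a signal just below the threshold, and the mt- lists had lower summit pileups. The deposited lists hold no read counts and no replicates, so no difference between single peaks can be judged against an error.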
